A study of Mus musculus with 12 samples.

Results

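DN3 thymocytes were compared with DN4 thymocytes, the stages on either side of beta selection, through the miRNAs of 1 small RNA library each, 2 of the 12 libraries of a series on mouse T cell development. The cells were sorted from the thymus of C57BL/6 mice, with no genetic change or treatment in the labels. DN3 cells were CD4- CD8- CD3- CD90+ CD44- CD25+, and DN4 cells were CD4- CD8- CD3lo CD90+ CD44- CD25-. The labels state neither the age of the mice nor how many were pooled. Total RNA was run on a gel, the small RNA fraction was taken, and only RNAs carrying a phosphate at the 5' end and a hydroxyl at the 3' end could receive adaptors. Reads were summed per miRNA number, which adds both arms of a hairpin and all gene copies of the same name, over the table of mature miRNAs and the table of remaining hairpin reads. Each sum is given as reads per 1000000 (RPM) of both tables, a share of the library and not an amount per cell, so in these bulk samples fewer cells of a type and less RNA per cell cannot be told apart.

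At beta selection a thymocyte that has made a working T cell receptor beta chain pairs it with the pre-T alpha chain, signals through this pre-T cell receptor, divides, and loses CD25. A miRNA is a short RNA cut from a hairpin transcript and loaded into an Argonaute protein, and it lowers the output of messenger RNAs that pair with its seed, the bases near its 5' end. In the thymus miR-181a is known for tuning the strength of T cell receptor signals, and the miR-17 cluster for supporting survival and division.

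The miRNAs on which the comparison turns are shown with their seed, bases 2 to 8, in capitals, as RefSeq gives them (GRCm38.p6). They are the most abundant miRNA of DN4, the most abundant of DN3 with a relative, pairs that share a seed but stood on opposite sides, and 3 with large ratios.
miR-181a-5p: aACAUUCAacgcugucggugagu
miR-16-5p: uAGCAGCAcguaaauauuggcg
miR-15b-5p: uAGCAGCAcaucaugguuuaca
miR-93-5p: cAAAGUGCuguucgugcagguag
miR-20a-5p: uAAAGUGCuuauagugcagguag
let-7i-5p: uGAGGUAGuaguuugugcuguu
let-7f-5p: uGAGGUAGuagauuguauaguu
miR-146a-5p: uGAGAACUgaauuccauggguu
miR-22-3p: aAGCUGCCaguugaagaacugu
miR-155-5p: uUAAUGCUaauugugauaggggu
A library trait runs beside the stage and shows in the most abundant deposited read of miR-181a, where capitals again mark the seed bases that the read still holds.
DN2: CATTCAacgctgtcggtgagt
DN3: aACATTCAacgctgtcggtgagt
DN4: ACATTCAacgctgtcggtgagttt
DP: ACATTCAacgctgtcggtgagt
The read counts of these sequences were 33461 in DN2, 163679 in DN3, 4984 in DN4 and 102673 in DP, the CD4+ CD8+ stage that follows DN4. In DN3, 98.96% of mature-table reads began at base 1 of the miRNA. In DN4, 96.3% began at base 2, as did 98.3% in DP and 98.4% in MEF, a fibroblast library of the series, and the other 8 libraries began mostly at base 3. The base at which reads start and the stage cannot be told apart in DN3 against DN4.

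DN3 held 4984351 reads and DN4 held 74856, the most and the fewest of the 12 libraries, so 1 read was worth 0.201 RPM in DN3 and 13.4 RPM in DN4. A count of 0 allows up to 3 reads, or 40.1 RPM, in DN4. Hairpin-table reads made up 8.26% of DN3 and 15.3% of DN4. Of the cell type markers, miR-142, found across blood cells, was abundant in both libraries. The 3 erythroid markers together had 5247 RPM in DN3 and 521 RPM in DN4, and myeloid miR-223 was at 63.2 RPM in DN3 and at 0 reads in DN4. The 7 epithelial markers summed to 230 and 227 RPM, the 5 mesenchymal markers to 14.2 and 26.7, the 4 muscle markers to 7.82 and 33.4, liver miR-122 to 4.21 and 13.4, neural miR-9 and miR-124 to 16.5 and 0, and endothelial miR-126 to 535 and 200. The part of these cell types in the results was not tested.

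With 1 library a stage there is no test of the stage. A miRNA was compared where it reached 100 RPM and 10 reads in the library with more, and was called higher or lower in DN4 where the whole exact 95% interval of the DN4 over DN3 ratio lay beyond 2-fold. The interval covers counting error only. Of 183 miRNAs compared, 71 were called higher in DN4 (38.8%), 51 lower (27.9%) and 61 neither, with a median log2 ratio of 0.13. Either call was made for 66.7% of miRNAs, so a call by itself sets no miRNA apart. In the mature table alone, 149 miRNAs were compared, of which 47 were higher (31.5%) and 46 lower (30.9%), with a median log2 ratio of -0.37. The 34 miRNAs compared only when hairpin reads were added held 22 called higher and 1 called lower. The scaling of the libraries also moved this split. With TMM factors, which assume that most miRNAs keep their level, ratios shifted by -1.23 on the log2 scale, 43 miRNAs were higher and 88 lower, and with median-of-ratios factors, with a shift of -0.34, the counts were 63 and 58. All 51 lower calls were also made under both scalings, while 43 of the 71 higher calls were made under TMM. Both scalings move every ratio down, so they could remove higher calls but not lower calls.

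**Figure D1:**
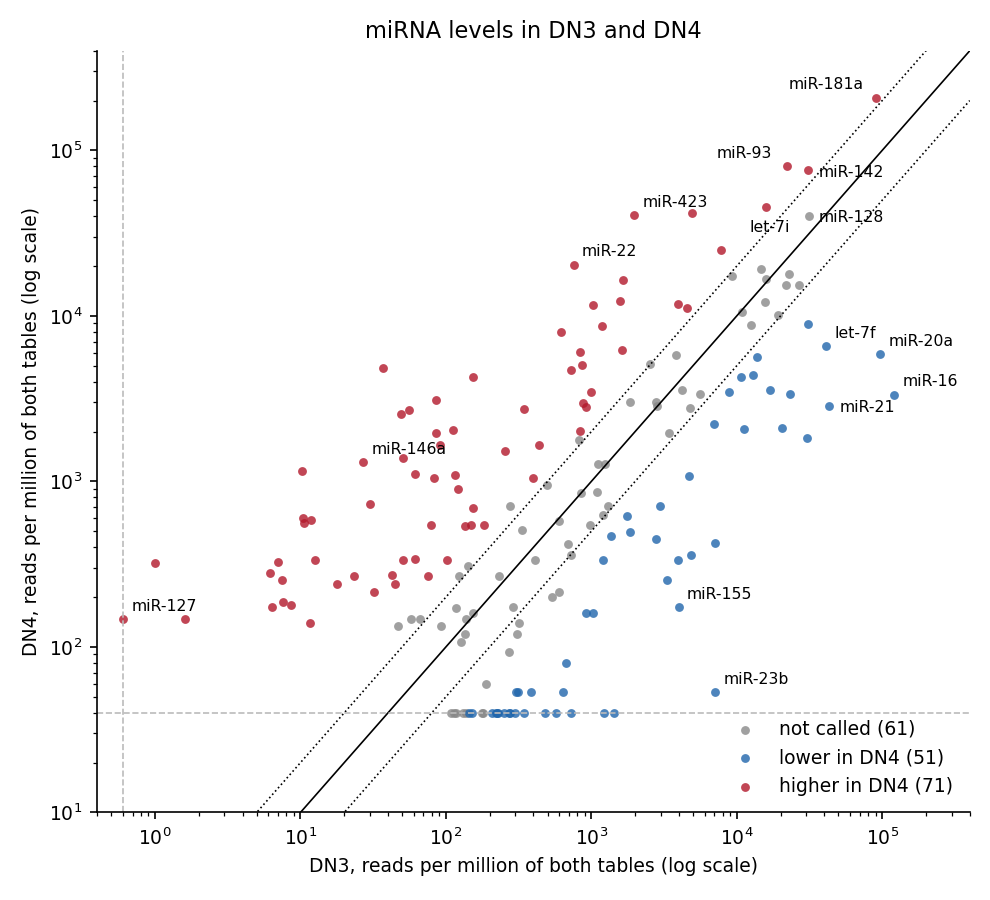
Level of the 183 compared miRNAs in DN3 (x axis) and DN4 (y axis), in RPM of both tables on log scales. The solid line marks equal levels and the dotted lines 2-fold; levels below 3 reads are drawn at 3 reads (dashed lines), so the row of points at the bottom holds miRNAs with 3 or fewer DN4 reads. The 71 red points (higher in DN4) reach down to low DN3 levels, and the 51 blue points (lower) include miR-16 and miR-20a, the most abundant miRNAs of DN3.

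The order of the most abundant miRNAs differed between the stages. In DN3 miR-16 led with 12.1% of reads, before miR-20a with 9.73%, miR-181a with 9.12% and miR-21 with 4.33%. In DN4 miR-181a led with 20.8%, before miR-93 with 8.01%, miR-142 with 7.57% and let-7i with 4.56%. Of the 8 leading miRNAs of each stage, miR-181a, miR-142 and miR-128 were in both sets. The miRNAs called lower in DN4 held 54.7% of DN3 reads and 6.71% of DN4 reads, and those called higher held 20.2% of DN3 reads and 69.98% of DN4 reads.

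The miR-181 family was the most abundant group of DN4, with 256466 RPM against 124225 RPM in DN3. miR-181a, from hairpins at chr1:137966455-137966541 and chr2:38852735-38852810 (both on the plus strand, the first in an intron of the long noncoding RNA A430106G13Rik), had 91246 RPM in DN3 and 208413 RPM in DN4. It was 2.28 times as high in DN4 (95% interval 2.25 to 2.32), between 24128 RPM in DN2 and 545886 RPM in DP. miR-181c had 7736 RPM in DN3 and 25015 RPM in DN4, a ratio of 3.23 (3.08 to 3.39), but of 1.43 in the mature table alone, where it was not called. miR-181b went the other way without a call, from 22696 to 17908 RPM, a ratio of 0.789, and miR-181d had a ratio of 2.01 with an interval across the 2-fold limit. The 4 members therefore shared a seed but not a direction, with 2 called higher, none lower, and a median log2 ratio of 1.10 against 0.13 over all miRNAs compared. The shares over all miRNAs compared were 38.8% higher and 27.9% lower. Under TMM the ratio of miR-181a was 0.975 and the family median -0.13, so the direction of the group rests on the scaling. Reads of miR-181a that ran 2 or more bases past the annotated 3' end made up 19.3% in DN3 and 41.1% in DN4. Over all placed reads of these libraries the shares were 7.58% and 15.3%. The latter shares include miR-181a itself, with 409786 of 4303820 placed reads in DN3 and 14451 of 60590 in DN4. They are therefore no background apart from miR-181a.

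The miR-17 cluster and its paralog clusters were split by member. These hairpins lie together in the noncoding transcript Mir17hg on chr14, on the X chromosome, and in Mcm7, a gene for a subunit of the replicative helicase. miR-20a (Mir17hg, chr14:115044157-115044263) had 97292 RPM in DN3 and 5851 RPM in DN4, 16.6-fold lower (15.1 to 18.3). miR-93 (in an exon of Mcm7, chr5:138165523-138165610, minus strand) had 22199 RPM in DN3 and 80074 RPM in DN4, a ratio of 3.61 (3.51 to 3.70). The seeds of both, AAAGUGC, are the same, and their ratios stood 59.98-fold apart. The X-linked miR-20b and miR-106a were lower, at ratios of 0.211 and 0.186, while miR-17, with 21766 and 15425 RPM, and miR-106b, with 3410 and 1968 RPM, were not called. Of the other seeds of these clusters, miR-19a and miR-19b had ratios of 1.63 and 1.89, miR-18a 0.60, miR-92a 1.06 and miR-25 1.52, none called, and miR-363 was lower at 0.12, and at 0.027 from 1 DN4 read in the mature table alone. There miR-92a and miR-25 had ratios of 0.756 and 1.02, also without a call. In all, 1 of 13 members was higher, 4 were lower and 8 were not called, with a median log2 ratio of -0.50. The shares over all miRNAs compared were 38.8% higher and 27.9% lower, with a median of 0.13. The 6 members with the AAAGUGC seed summed to 172653 RPM in DN3 and 108942 RPM in DN4 over both arms. Reads placed on the arm with this seed made up 150153 RPM in DN3 and 87087 RPM in DN4, a ratio of 0.58 (0.566 to 0.594). With TMM factors miR-93 kept its direction at 1.54 but not its call.

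The let-7 family, known for restraining growth as cells differentiate, was split in the same manner. let-7f, whose copies lie in the noncoding transcript 6720427I07Rik on chr13 and in an intron of Huwe1 on the X chromosome, had 41225 RPM in DN3 and 6566 RPM in DN4, 6.28-fold lower (5.75 to 6.87). let-7i (chr10:122985640-122985724, minus strand, outside annotated genes of its strand) had 15892 RPM in DN3 and 45634 RPM in DN4, a ratio of 2.87 (2.77 to 2.97). let-7a, let-7d and let-7e were lower with ratios of 0.289, 0.410 and 0.170, the last from 4 reads in DN4. let-7b, let-7c, let-7g and miR-98 lay between 0.518 and 0.712 and were not called. The family had 1 higher, 4 lower and 4 uncalled members, a median log2 ratio of -0.94, and a sum of 161915 RPM in DN3 and 101769 RPM in DN4. Among all miRNAs compared 38.8% were higher and 27.9% lower, with a median of 0.13. With TMM factors let-7i had a ratio of 1.23 and was not called. The miR-29 family repeated the split on a smaller scale, with miR-29a at 12891 and 4395 RPM (0.341), miR-29b at 14579 and 19083 RPM (1.31, not called) and miR-29c at 439 and 1650 RPM (3.75, and 1.60 without a call under TMM).

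**Figure D2:**
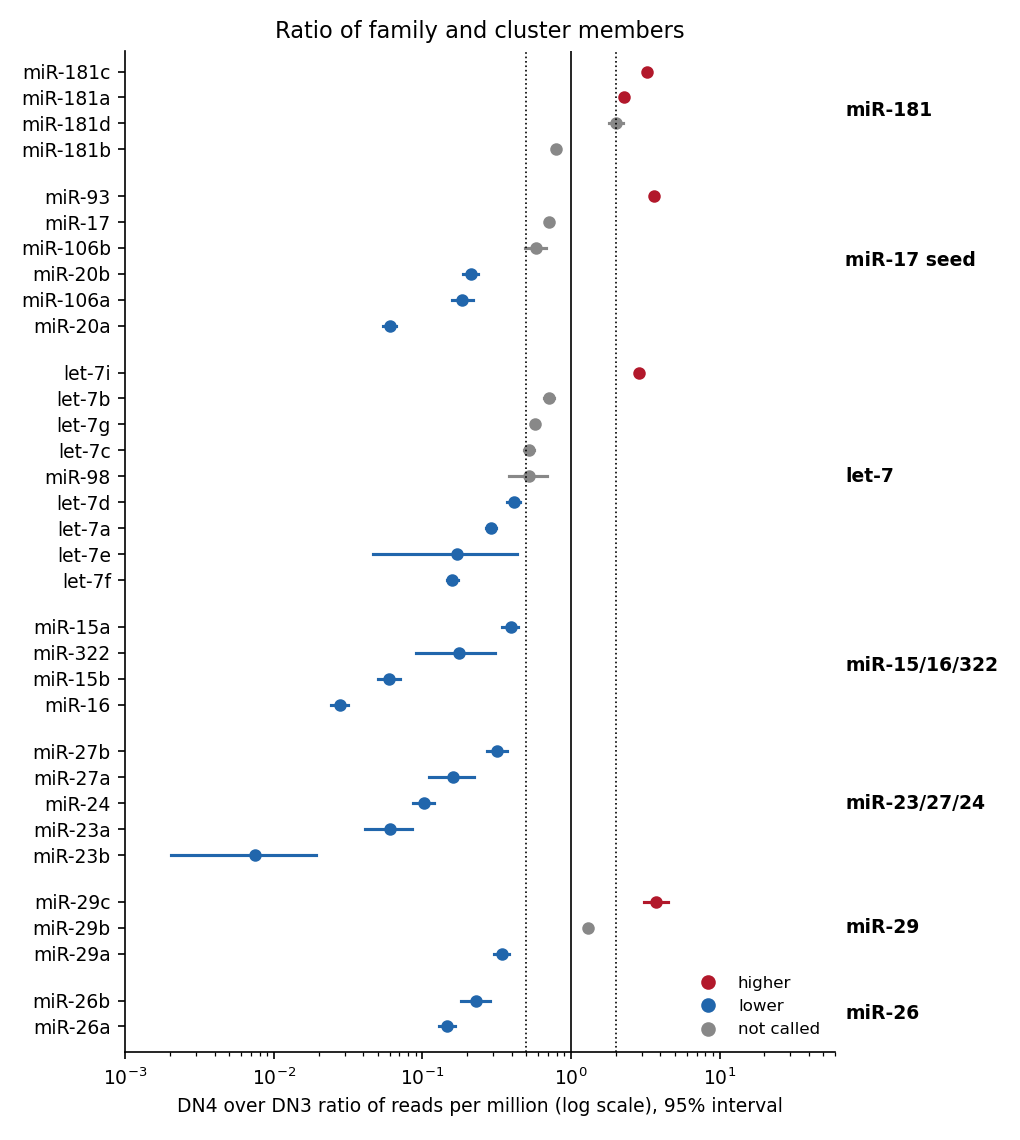
DN4 over DN3 ratio of RPM for members of 7 families and clusters, on a log axis, with exact 95% intervals for counting error as bars where they are wider than the point. Dotted lines mark 2-fold. The let-7, miR-17 seed and miR-29 groups hold red (higher) and blue (lower) members, whereas all members shown of the 3 groups around miR-16, miR-24 and miR-26 are blue.

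Families that were lower throughout included the leading miRNA of DN3. miR-16, which restrains the cell cycle and the survival gene Bcl2, had 120541 RPM in DN3 and 3340 RPM, or 250 reads, in DN4, 36.1-fold lower (31.9 to 41.0). Its hairpins lie in introns of Smc4 (chr3:69009902-69009996, plus strand) and Dleu2 (chr14:61631880-61631972, minus strand). miR-15b, from the same intron of Smc4, had 30558 RPM in DN3 and 1817 RPM in DN4, 16.8-fold lower (14.2 to 20.1). miR-15a had 8800 and 3447 RPM, a ratio of 0.392. The related miR-195 and miR-497 did not reach 100 RPM, and the 3 members compared were all lower, with a median log2 ratio of -4.07. Among all miRNAs compared 27.9% were lower, with a median of 0.13. miR-16 had 144121 RPM in DN2 and 2700 RPM in DP, so DN4 stood with DP. It had 188 RPM in MEF, whereas the 8 libraries whose reads start at base 3 lay between 69356 and 246180 RPM.

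The clusters of miR-23, miR-27 and miR-24, whose copies lie on chr8 and chr13, were lower in all 5 members, with a median log2 ratio of -3.29. The share lower over all miRNAs compared was 27.9%, with a median of 0.13. miR-23b had 7132 RPM in DN3 and 4 reads in DN4, 133-fold lower (52.1 to 490), with 0 DN4 reads in the mature table, as for miR-23a. miR-24 had 20520 RPM in DN3 and 2097 RPM in DN4, 9.78-fold lower (8.37 to 11.5), and miR-27b was at 7015 and 2224 RPM. The DN3 level of miR-23b stood apart from the other libraries, since the next highest, DN2, had 390 RPM. miR-23a, at 7094 RPM in DN3, was next highest in MEF, at 1116 RPM, and was at 146 RPM in DN2 and 114 RPM in DP. DN3 was also the only library whose reads start at base 1, so stage and read start cannot be told apart for these levels. miR-26a and miR-26b, from introns of Ctdspl, Ctdsp2 and Ctdsp1, were lower at ratios of 0.146 and 0.229, and of 0.151 and 0.114 in the mature table alone. In the miR-30 family miR-30b, miR-30c and miR-30e were lower, at ratios of 0.270, 0.343 and 0.403, and miR-30a and miR-30d were not called. In the mature table alone the ratio of miR-30b was 0.288 and that of miR-30e 0.164. miR-30c was not called there, at 0.366 (0.248 to 0.520), nor with DN3 thinned to the depth of DN4, at 0.372. Outside these groups miR-652 had 3918 and 334 RPM (0.085) and erythroid miR-451 had 4856 and 361 RPM (0.074), both also lower in the mature table alone. miR-1939 had 3332 and 254 RPM (0.076), but a ratio of 4.15 in the mature table alone.

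miRNAs tied to lymphocyte activation and maturity went in both directions. miR-155, made from Mir155hg on chr16 and known for its induction on activation of lymphocytes, had 3993 RPM in DN3 and 13 reads (174 RPM) in DN4, 23.0-fold lower (13.4 to 43.2). miR-21 (in an exon of Vmp1, chr11:86584067-86584158, minus strand), also known to follow activation, had 43344 RPM in DN3 and 2859 RPM in DN4, 15.2-fold lower (13.3 to 17.4). miR-132, in contrast, had 6.42 RPM in DN3 and 13 reads in DN4, a ratio of 27.1 (13.0 to 52.99), but was too low to compare in the mature table alone. Of the 7 activation miRNAs, 3 could be compared, and the other 4, miR-212, miR-182, miR-183 and miR-96, were below 100 RPM in both libraries.
In the list of 7 miRNAs of mature lymphocytes 4 were higher, 1 lower and 2 not called, with a median log2 ratio of 1.91. Over all miRNAs compared 38.8% were higher and 27.9% lower, with a median of 0.13. The list holds miR-29a, miR-29b and miR-29c, already given as a family, so its lower member, miR-29a, and higher miR-29c are counted in both places. miR-146a, a brake on NF-kappaB signalling, had 27.1 RPM in DN3 and 1309 RPM, from 98 reads, in DN4, a ratio of 48.3 (36.9 to 63.2). It had 420 RPM in DN2 and 95.7 RPM in DP, so DN3 was the lowest of these 4 thymus stages and DN4 the highest. Outside these 4, it was at 7202 RPM in DN1, and at 1512 and 831 RPM in the single-positive libraries CD4SP and CD8SP. miR-150, which acts on Myb, had 346 RPM in DN3 and 2739 RPM in DN4, a ratio of 7.92 (6.82 to 9.16), with 4176 RPM in DP. miR-342 had 90.5 and 1657 RPM, a ratio of 18.3, and miR-146b was not called at 1.92, nor at 1.18 in the mature table alone.

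Other abundant miRNAs were higher in DN4. Among those that reached 1000 RPM the largest ratio was that of miR-2182, with 37.1 RPM in DN3 and 4863 RPM in DN4 (131). miR-690 had 48.9 and 2552 RPM (52.2), and miR-1934 had 50.8 and 1376 RPM (27.1). In the mature table alone miR-2182 and miR-690 were too low to compare. miR-22, from an exon of Mir22hg (chr11:75463716-75463810, plus strand), had 755 RPM in DN3 and 20372 RPM in DN4, a ratio of 26.98 (25.4 to 28.6). It was at 1149 RPM in DN2 and 42445 RPM in DP, and at 487381 RPM in MEF. miR-423, from an intron of Nsrp1, had 1965 and 40651 RPM, a ratio of 20.7 (19.9 to 21.5). miR-378 had 4887 and 42148 RPM, a ratio of 8.62, and miR-671 had 616 and 7962 RPM, a ratio of 12.9. The neighbouring miR-296 and miR-298 of the imprinted Gnas locus on chr2 were higher together, at ratios of 9.96 and 6.47, miR-296 with 16432 RPM in DN4 against 756 RPM in DN2 and 2093 RPM in DP. miR-210, known as a hypoxia-induced miRNA, had 83.3 and 1055 RPM, a ratio of 12.7. miR-142 had 31020 and 75652 RPM, a ratio of 2.44 (2.38 to 2.50), and of 1.04 under TMM. miR-130b had a ratio of 2.96, and of 1.26 without a call under TMM. miR-128, at 31232 and 40358 RPM, with 28815 RPM in DN2 and 31083 RPM in DP, was not called.
Among all miRNAs compared 38.8% were higher and 27.9% lower. Of the progenitor list, 8 of 14 miRNAs were compared, of which 1 was higher, 1 lower and 6 not called. The higher one was miR-10a, a miRNA of the Hox loci, with 11.8 RPM in DN3 and 588 RPM, from 44 reads, in DN4; miR-126, miR-221 and miR-99a, at ratios of 0.374, 0.354 and 0.561, were not called. miR-127 of the imprinted Dlk1-Dio3 locus had 0 reads in DN3 and 11 reads (147 RPM) in DN4, with an exact lower limit of 167 for the ratio, and was at 26352 RPM in MEF. Under TMM it was at 96.0 RPM in DN4, below the level for a comparison, and was not called.

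**Figure D3:**
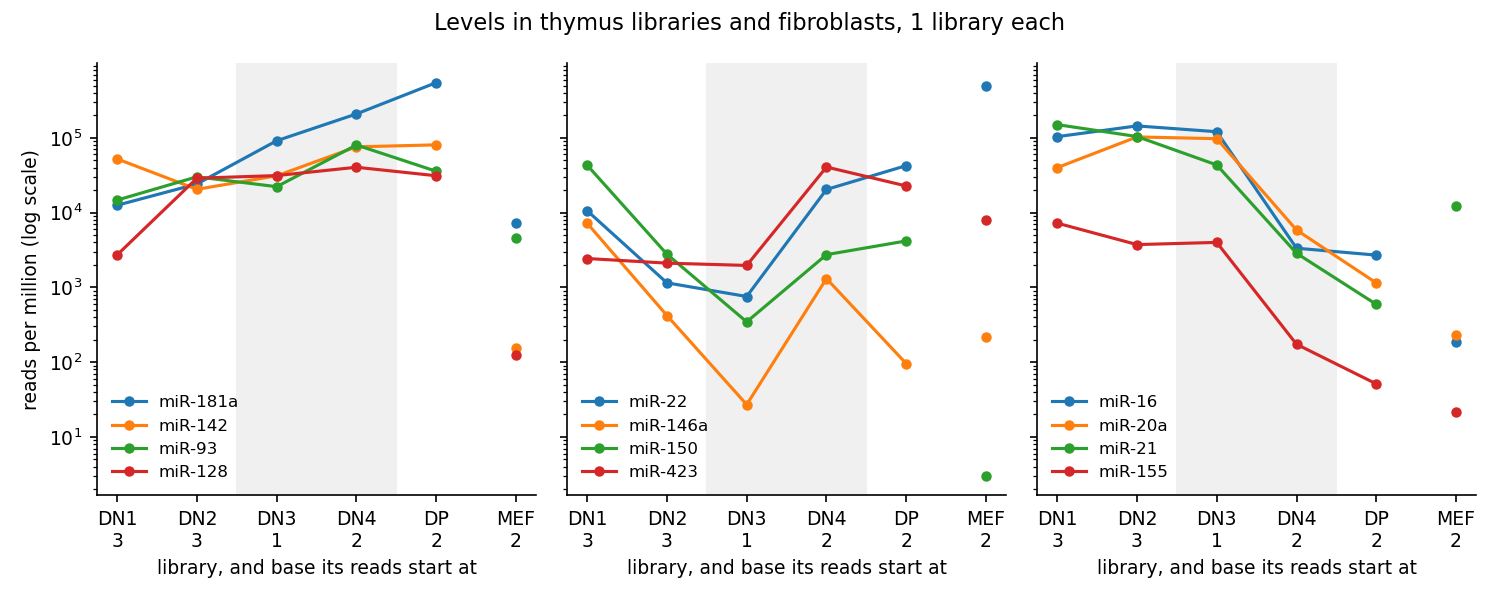
Level of 12 miRNAs in RPM (log scale) in thymus libraries from DN1 to DP and in fibroblasts (MEF), 1 library each, with the base at which its reads start under each name and DN3 and DN4 shaded. miR-181a (left) increases from DN1 to DP, miR-22, miR-146a and miR-150 (middle) are lowest at DN3 among the thymus libraries, and miR-16, miR-20a, miR-21 and miR-155 (right) drop between DN3 and DN4, where the read start also changes.

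Most of the repeated hairpins that could be compared were lower in DN4. Of the 44 names of the miR-297, miR-466, miR-467 and miR-669 groups, 18 were compared, and 12 were lower and none higher, with a median log2 ratio of -3.97, or -2.77 with the members at 0 DN4 reads set to the limit of 3 reads. Over all miRNAs compared 27.9% were lower and 38.8% higher, with a median of 0.13. Of the 18 repeated names, 14 have a hairpin in Sfmbt2 on chr2, a gene that holds a block of near-identical hairpins, and 11 of the 14 were lower. miR-466j on chr10, miR-466k on chr3 and miR-467h on chr9 lie elsewhere, and of them miR-467h was lower, while miR-466a had no hairpin of that name in GENCODE. Together the 44 names had 7402 RPM in DN3 and 1058 RPM in DN4, with 2778 RPM in DN2 and 9226 RPM in the CD8SP library of mature CD8 T cells. miR-467e, in Sfmbt2, had 1215 RPM in DN3 and 2 reads in DN4, a ratio of 0.022 (0.0027 to 0.079), and of 0.014 in the mature table alone. Sequences of such copies are shared between names, which makes the split among members uncertain.
Of 19 names chosen as likely fragments of other structured RNA, 17 were compared, and 15 were higher, 1 lower and 1 not called, with a median log2 ratio of 4.18. The shares over all miRNAs compared were 38.8% higher and 27.9% lower, with a median of 0.13. The 19 names summed to 5020 RPM in DN3 and 37704 RPM in DN4, with 34638 RPM in LMPP and 7422 RPM in DP. miR-2134 had 10.2 and 1162 RPM, a ratio of 114. miR-2142 had 1031 and 11656 RPM, a ratio of 11.3, and of 6.11 in the mature table alone. In the mature table alone 7 of these names were compared and 3 were higher, with a median log2 ratio of 0.94. Of all miRNAs compared there, 31.5% were higher, with a median of -0.37. Without the 19 names, an alternative chosen after seeing the data, 56 miRNAs were higher and 50 lower.

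The arm of the hairpin that gave the reads differed for some miRNAs. Reads could be placed on either arm for 70 miRNAs, and the share of the 5' arm moved by under 10 percentage points in 56. In 6 the arm with more reads changed. miR-142 and miR-23a show this best, with the seed in capitals.
miR-142-5p: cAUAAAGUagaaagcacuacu
miR-142-3p: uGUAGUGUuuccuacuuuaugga
miR-23a-5p: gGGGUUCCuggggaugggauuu
miR-23a-3p: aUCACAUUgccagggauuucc
The 5' arm of miR-142 gave 64.5% of placed reads in DN3 and 15.5% in DN4. The 3' arm had 9616 RPM in DN3 and 58646 RPM in DN4, a ratio of 6.10 (5.91 to 6.29), while the 5' arm had 17478 and 10781 RPM, a ratio of 0.617 (0.575 to 0.661). The higher level of miR-142 in DN4 was thus that of its 3' arm. For miR-17 the 5' arm made up 76.6% in DN3 and 20.5% in DN4, with ratios of 0.191 for the 5' arm and 2.43 for the 3' arm, which lie behind the uncalled sum. For miR-20b the share went from 95.1% to 28.1%. In miR-92a the share went from 6.67% to 56.2%, with the 3' arm at 13344 and 6773 RPM, and in miR-27a from 1.24% to 66.7%. miR-23a gave 32944 reads from its 3' arm and 183 from its 5' arm in DN3, and 0 and 31 in DN4, so the 3' arm was at least 165-fold lower. The miR-23a lead of the 3' arm was found in DN3 and in none of the 10 other libraries with at least 30 placed reads, in which the 5' arm gave 81.7% or more. DN3 was also the only library whose reads start at base 1.
The same shares were read in the other libraries. For 13 of the 14 miRNAs whose share moved by 10 points or more, DN4 and the other libraries that start at base 2 did not overlap with the rest. These 14 were chosen because DN3 and DN4 differed, and the count over all 70 was not taken, so no background stands beside it. For miR-339 the gap was small, with 90.7% or more in DN4, DP and MEF and 90.3% or less in the other 9. The 5' arm of miR-142 gave 14.6% to 15.5% of placed reads in DN4, DP and MEF, and 64.5% to 88.7% in the other 9. That of miR-17 gave 13.0% to 20.5% in those 3 libraries and 76.6% to 94.9% in the other 9. Whether the read start sets these shares was not tested.

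**Figure D4:**
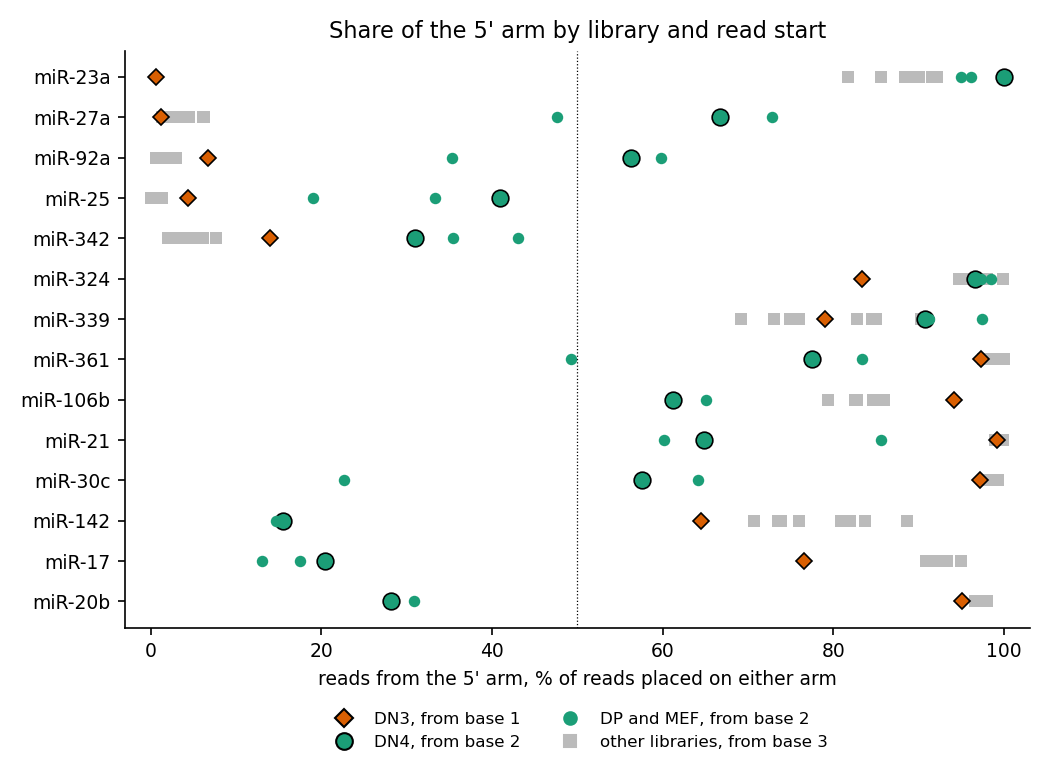
Share of reads from the 5' arm (x axis, % of reads placed on either arm) in every library with at least 30 placed reads, for the 14 miRNAs whose share moved by 10 points or more between DN3 and DN4. Diamonds are DN3 (reads from base 1), circles DN4, DP and MEF (from base 2, DN4 outlined) and squares the libraries that start at base 3. Circles keep apart from squares and diamonds in 13 of the 14 rows, the exception being miR-324. The rows were chosen because DN3 and DN4 differed, and the other miRNAs were not counted.

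The read start and the base composition moved with the levels too. Among the 51 miRNAs called lower, DN4, DP and MEF were the 3 lowest of the 12 libraries for 30, against 36 of all 183 compared. DN3 was the highest of the 12 for 20 of the 51, against 29 of all 183. Among the 71 called higher, DN4, DP and MEF were the 3 highest for 21, against 22 of all 183. DN4 was the highest of the 12 for 51 of the 71, against 61 of all 183. These ranks are a description, since the calls already placed DN3 and DN4 apart. The reads of DN3 held 43.1% G and C, those of DN4 49.0%, DP 47.7% and MEF 49.3%, and the other 8 libraries 43.4% to 45.6%. The GC content of a miRNA was taken from its most abundant sequence in DN3, also where DN3 had few reads. Only miR-127, without DN3 reads, was taken from DN4. Where the leading arm changed, as for miR-142, the sequence is thus of the arm that led in DN3. The median GC content was 57.9% among miRNAs called higher, 45.5% among those not called and 40.9% among those called lower. Of 36 miRNAs with at least 60% GC, 32 were higher and 1 lower, and of 39 under 40% GC, 8 were higher and 20 lower. Across the 183 miRNAs, which share the same 2 libraries, the log2 ratio and the GC content had a Pearson r of 0.56 and a Spearman rho of 0.54. The 87 miRNAs with at least 1000 RPM that are not among the 19 names above gave 0.46 and 0.47. Its part in the ratios was not tested, and composition, read start and stage cannot be told apart with these libraries.

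**Figure D5:**
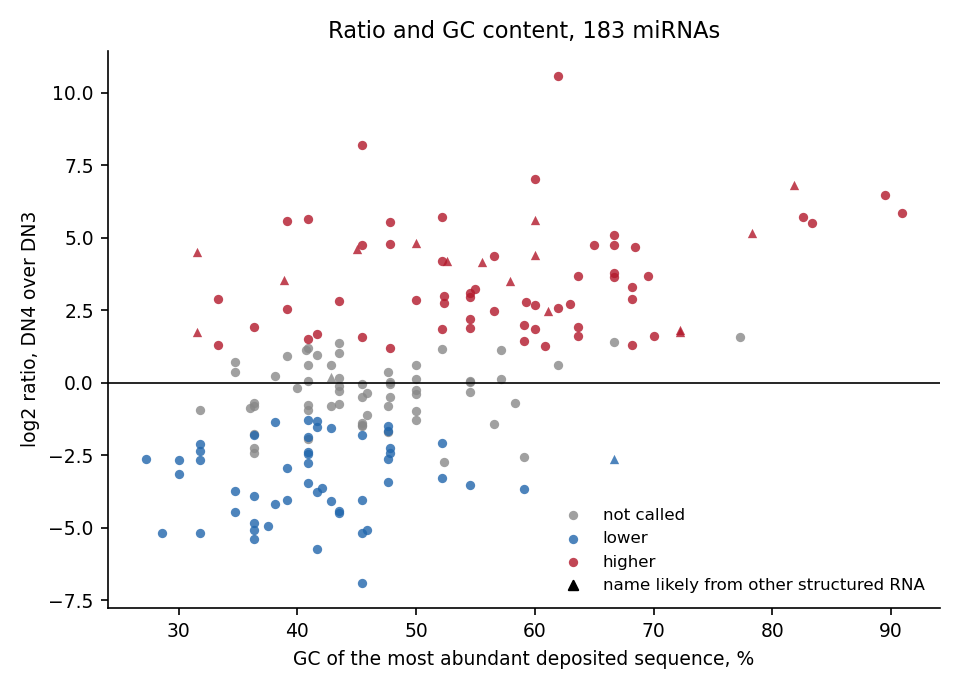
The log2 ratio of DN4 over DN3 (y axis, with 0.5 reads added) against the GC content of the most abundant deposited DN3 sequence of each miRNA (x axis, %), for the 183 miRNAs compared. For miR-127, without DN3 reads, the DN4 sequence was used. Triangles are names likely from other structured RNA. Red points (higher) outnumber blue points (lower) at 50% GC and above, and blue outnumber red below it.

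Taking seeds as the unit, 126 of the 183 compared miRNAs had a mature sequence in RefSeq, and 18 seeds had at least 2 compared members, 57 in all. 3 of the 18 held members called in both directions, those of let-7, miR-17 and miR-29. Their only higher members, let-7i, miR-93 and miR-29c, were not called under TMM. Another 3 of the 18 seeds were lower in all members, those of miR-15 with miR-16 and miR-322, of miR-26 and of miR-27, and none was higher in all. These calls rest on sums of both arms. Counting only reads placed on the arm that carries the seed, the seed of miR-15, miR-16 and miR-322 had 145191 RPM in DN3 and 8242 RPM in DN4, and that of miR-181 had 111724 and 237296 RPM. The seed of miR-25, miR-32, miR-363, miR-92a and miR-92b had 17612 and 9872 RPM, a ratio of 0.561 (0.521 to 0.603), although the sums of both arms were 20791 and 22617 RPM. Just inside the limit of a call were miR-324 with a ratio of 2.43, miR-188 with 2.67 and miR-30c with 0.343, and just outside were miR-181d with 2.01, miR-674 with 2.17 and miR-194 with 2.57. In the mature table alone miR-324, at 2.00, was not called and miR-674, at 2.47, was.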

How the data were processed

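Small RNA of DN3 and DN4 thymocytes had been sequenced by the authors, and per the file headers every row of the deposited tables holds a distinct sequence with a miRNA name, a length, a start position and a count of reads, which is not normalised. No label or header used here gives the trimming, aligner, mismatches allowed, miRNA release or genome build. The names in the 2 tables of CD8SP were of the opposite kind and were used by the names held, and for CD4SP the mature table was used alone.

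Counts were summed by miRNA number, and a sequence listed under several numbers was split equally. Ratios of RPM of both tables have exact conditional binomial (Clopper-Pearson) 95% intervals. Medians of log2 ratios add 0.5 reads. A miRNA counted at 0 was given a limit of 3 reads in that library. Intervals and limits cover counting error only, since reads without molecular identifiers are not independent molecules. The calculation was tested on simulated data. Computation used Python 3.11.15, scipy 1.17.1 and, for scaling alternatives over all 12 libraries, edgeR 4.0.16 (TMM) and DESeq2 1.42.0 (median of ratios).

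Named miRNAs were drawn from the 12 largest ratios each way among called miRNAs that reach 1000 RPM and 30 reads where they are higher. They were also drawn from the 8 most abundant of each library, and from up to 4 of highest mean of each of 29 lists. Not every miRNA that met these rules is given above. Further members are named to account for a list or a pattern and were chosen after their values were seen. The lists and members were chosen with earlier results of these data known. Arms and 3' ends were read by matching bases 3 to 17 of RefSeq mature sequences, with at least 100 placed reads in DN3 and 30 in DN4. Sequences and positions come from RefSeq (GRCm38.p6) and host genes from GENCODE M21.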

Additional observations from a re-analysis of the deposited data

How the results depend on the processing

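With counts as the measure, all 51 lower calls were also made under TMM factors, median-of-ratios factors, without sequences seen once, with a floor of 10 RPM and with a limit of 1.5-fold. Both kinds of factors move every ratio down, and the floor and limit loosen the call, so these settings could not remove a lower call. Of the 51, 46 were also made in the mature table alone and 46 with DN3 thinned to the total of DN4. Without the 3 most abundant miRNAs 49 were made. That setting itself takes out miR-16, a lower call, and miR-30c was not called under it. With perfect matches 28 were made. The number higher was 47 in the mature table alone by number, 43 with TMM factors, 36 with perfect matches to RefSeq hairpins alone, 41 with a floor of 1000 RPM and 30 reads, and 47 with a limit of 4-fold. The number lower was 88 with TMM factors, and 28, 31 and 26 under the last 3 of these settings. The last 3 compare fewer miRNAs or ask for more, and the mature table alone also compares fewer, 149 against 183. TMM factors shift every ratio by -1.23 on the log2 scale. What lies behind that shift was not tested. The median log2 ratio of 0.13 became -0.37 in the mature table alone, -1.26 with TMM factors, -0.23 with median-of-ratios factors, -0.14 without sequences seen once, -0.16 with perfect matches, -0.32 with a floor of 10 RPM, -0.023 without the 19 names likely from other structured RNA (chosen after seeing the data) and 0.35 with DN3 thinned to the total of DN4. By distinct sequences 92.8% of DN3 began at base 1 and 84.3% of DN4 at base 2. Directions reversed for miR-181a (0.975) and the median of the miR-181 family (-0.13) with TMM factors, and for miR-1939 (4.15) in the mature table alone. No direction was left for miR-1937b without shared sequences (0, interval to 20.1), for miR-1946b without sequences seen once (0, to 6.01) and, with perfect matches, for miR-467c, miR-467h and miR-669c, all at 0 DN4 reads and below the floor. Depth limits DN4, where 13.4 RPM is 1 read; no replicate could be left out, and no paired analysis was possible because each stage has 1 library.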
